A study of Mus musculus with 12 samples.

Results

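The 9 genes described here, F13a1, Tgfbi, Vcan, Emb, Plac8, Tifab, Pltp, Fn1 and Lyz2, were taken by symbol from the 33531 gene symbols measured in mouse acute myeloid leukaemia cells. They were chosen by their RPKM levels, which seemed to climb in steps over the 4 groups of the study, from PBS to Dox, to CpG1668, to CpG1668+Dox. The levels that chose them are therefore given as a description. All 9 were among the 12167 genes with a mean RPKM (reads per kilobase of a gene, scaled to the depth of the library) of at least 1 over the 12 libraries. The order held for 7 of the 9; in Fn1 and Lyz2 the mean after Dox was above the mean after CpG1668.

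The leukaemia, CMM, carries the inv(16) rearrangement. In CMM-tetON-shStat3 cells a short hairpin directed at Stat3, a signalling transcription factor, can be switched on with doxycycline (Dox). Cells marked by GFP and mCherry were injected into the veins of NSG mice, which lack lymphocytes but keep myeloid and red cells of their own, and were treated once such cells made up about 1% of the blood cells. PBS mice received buffer, CpG1668 mice a synthetic DNA oligonucleotide sensed by TLR9, Dox mice doxycycline, and CpG1668+Dox mice both agents. Every group carried the same cell line and the same hairpin, no group received Dox without the hairpin, and the labels give no age for the mice. Treatment was intravenous, and the labels give 6 daily treatments in one place and 3 treatments on alternate days in another. Spleens were taken 1 day after the last treatment, cells with both markers were sorted, and RNA was sequenced in 3 libraries a group. Nothing in the labels ties each library to its own mouse, so p-values cover the spread between libraries and no more.

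Monocytes arise from myeloid progenitors that switch on a set of genes under the transcription factors IRF8, KLF4 and PU.1. Early in that course the cells begin to make matrix and clotting proteins, lysozyme and receptors for growth factors. F13a1, Tgfbi, Vcan, Emb and Fn1 encode secreted or surface proteins that deal with matrix and adhesion, Plac8 and Tifab encode proteins inside the cell, Pltp encodes a lipid carrier of plasma, and Lyz2 encodes the lysozyme of macrophages and granulocytes. Plac8 and Lyz2 are also made by developing neutrophils.

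The libraries had an estimated depth of 30450000 to 35030000 reads, and 11945 to 12454 genes reached 1 RPKM in each. On log2(RPKM + 1) of the 12167 genes, libraries of a group correlated at 0.992 to 0.996 and libraries of different groups at 0.97 to 0.994. By that measure 11 of the 12 libraries were most like one of their own group. Stat3 itself was not lower in the Dox groups, with 17.2 ± 0.576 RPKM (SD, n = 3) in PBS, 18.9 ± 0.173 in Dox, 18.2 ± 0.483 in CpG1668 and 19.4 ± 0.331 in CpG1668+Dox. In bulk RNA, more cells of a type and more RNA per cell cannot be told apart, which holds for every level below.

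Positions come from GENCODE M21 on GRCm38, where all 9 are protein-coding genes. F13a1 lies on the minus strand at chr13:36867178-37050244, Tgfbi on the plus strand at chr13:56609523-56639562, Tifab on the minus strand at chr13:56173704-56178885, Vcan on the minus strand at chr13:89655312-89742509 and Emb on the plus strand at chr13:117208536-117274415. Plac8 lies on the minus strand at chr5:100553725-100572245, Pltp on the minus strand at chr2:164839518-164857711, Fn1 on the minus strand at chr1:71585520-71653200 and Lyz2 on the minus strand at chr10:117277331-117282321. So 5 of the 9 genes (55.6%) lie on chromosome 13, which holds 3.9% of the tested genes with a position. Its 464 tested genes, these 5 included, had a median log2 difference of 0.00 between CpG1668+Dox and PBS. Of them 9.48% were called higher, against 9.13% of all genes with a position. Tifab and Tgfbi are neighbours 431 kb apart. Ly86, which encodes a partner of a Toll-like receptor relative on myeloid cells, lies 295 kb from F13a1.

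The bases before 4 of the starts are shown because Tgfbi and Tifab sit close together, F13a1 had the largest ratio of CpG1668+Dox to PBS and Pltp lay furthest above the sum of its single gains. The sequences are from RefSeq on GRCm38.p6, written 5′ to 3′ on the strand of the gene, without bases that GENCODE places in an exon; capitals mark motif matches. F13a1 is shown for its outer start (chr13:37050245-37050494, minus strand), Tgfbi at chr13:56609336-56609522 (plus strand), Tifab at chr13:56178886-56179135 (minus strand) and Pltp at chr2:164857712-164857958 (minus strand).
F13a1: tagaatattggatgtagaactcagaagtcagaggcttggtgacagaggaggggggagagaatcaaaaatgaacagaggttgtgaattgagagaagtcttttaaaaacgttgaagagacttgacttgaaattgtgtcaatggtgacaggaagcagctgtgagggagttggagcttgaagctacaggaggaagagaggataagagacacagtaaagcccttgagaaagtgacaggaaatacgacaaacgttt
Tgfbi: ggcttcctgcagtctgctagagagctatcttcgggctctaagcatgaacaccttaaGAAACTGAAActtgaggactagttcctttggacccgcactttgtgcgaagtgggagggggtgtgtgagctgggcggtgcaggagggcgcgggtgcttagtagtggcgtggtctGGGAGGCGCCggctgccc
Tifab: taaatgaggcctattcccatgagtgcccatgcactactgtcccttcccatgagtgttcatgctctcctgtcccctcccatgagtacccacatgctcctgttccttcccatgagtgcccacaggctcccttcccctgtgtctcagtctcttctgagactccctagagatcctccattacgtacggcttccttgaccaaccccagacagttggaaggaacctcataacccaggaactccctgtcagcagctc
Pltp: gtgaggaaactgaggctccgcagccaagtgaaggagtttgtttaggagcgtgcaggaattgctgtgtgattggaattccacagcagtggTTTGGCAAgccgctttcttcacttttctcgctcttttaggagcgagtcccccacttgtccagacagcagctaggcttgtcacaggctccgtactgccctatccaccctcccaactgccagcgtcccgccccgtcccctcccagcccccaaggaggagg

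RefSeq promoters were found for 8 of the 9 genes, 10 in all. In the 250 bases before each start, 6 motifs were searched on both strands. The PU.1 motif GAGGAAGT was in none of the 10, against 2.44% of 32851 mouse promoters. The ETS-IRF composite, GGAA and GAAA parted by any 2 bases (2.3% of promoters), and the STAT motif TTCNNNGAA (7.02%) were also in none. The IRF motif, GAAA and GAAA parted by any 2 bases (2.98% of promoters), was found 194 bases before the start of Tgfbi. The C/EBP motif TTGCNNAA (9.56%) was found 161 bases before the start of Pltp and 12 bases before an inner start of Plac8. The NF-kappaB motif, GGGA and CC parted by any 4 bases (17.6%), was found 81 bases before the start of Tgfbi. It was also found 45 bases before an inner start of Emb. A match is only these letters in this window, and a window without a match says nothing of the factor. No motif was in the promoters of more than 2 of the 8 genes.

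F13a1 encodes the catalytic subunit of clotting factor XIII, which cross-links fibrin and is made by monocytes and macrophages. Its RPKM was 0.377, 0.574 and 0.671 in PBS libraries 1 to 3, then 2.65, 3.21 and 3.10 in Dox, 5.60, 5.57 and 5.53 in CpG1668, and 10.2, 10.7 and 13.5 in CpG1668+Dox. The 4 groups did not overlap, and the 3 CpG1668 libraries were almost equal. The ratios of means to PBS were 5.53 for Dox, 10.3 for CpG1668 and 21.2 for CpG1668+Dox.

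Tgfbi encodes a secreted matrix protein induced by TGF-beta that binds integrins. It had 1.29, 2.12 and 1.65 RPKM in PBS, 5.64, 6.41 and 6.33 in Dox, 9.79, 10.5 and 10.8 in CpG1668, and 16.9, 17.3 and 19.5 in CpG1668+Dox. Again no groups overlapped. Its ratios to PBS were 3.64, 6.15 and 10.6 in the same order.

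Vcan encodes versican, a large chondroitin sulphate proteoglycan that marks classical monocytes, and was the lowest of the 9 in every group. It had 0.0846, 0.142 and 0.142 RPKM in PBS and 0.562, 0.713 and 0.710 in Dox. It had 1.38, 1.34 and 1.16 in CpG1668 and 2.04, 2.39 and 2.54 in CpG1668+Dox. The groups stood apart, with ratios to PBS of 5.39, 10.5 and 18.9. A value of 3 reads per kilobase corresponds to 0.0857 to 0.0985 RPKM. Because the longest coding transcript of Vcan has 12427 bases, its PBS levels still stand for about 34 to 57 reads, if all reads come from that transcript.

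Emb encodes embigin, a membrane glycoprotein that escorts lactate transporters to the cell surface and affects adhesion. It had 0.634, 0.809 and 0.791 RPKM in PBS, 1.93, 2.15 and 2.56 in Dox, 4.30, 3.88 and 3.80 in CpG1668, and 6.19, 6.31 and 7.91 in CpG1668+Dox. No groups overlapped, and the ratios to PBS were 2.98, 5.36 and 9.14.

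Plac8 encodes a small cysteine-rich protein abundant in myeloid progenitors and monocytes. It had 1.71, 2.64 and 2.78 RPKM in PBS, 9.96, 11.5 and 13.6 in Dox, 23.3, 21.6 and 21.2 in CpG1668, and 37.8, 29.5 and 48.4 in CpG1668+Dox. The groups did not overlap, though the CpG1668+Dox libraries spread widely (SD 9.47 around a mean of 38.6). Its ratios to PBS were 4.93, 9.27 and 16.2.

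Tifab encodes a relative of TIFA that dampens TRAF6 signalling downstream of Toll-like receptors. It had 0.473, 0.669 and 0.511 RPKM in PBS, 2.003, 2.76 and 2.35 in Dox, 3.81, 4.21 and 4.14 in CpG1668, and 6.59, 6.38 and 8.97 in CpG1668+Dox. No groups overlapped, and the ratios to PBS were 4.30, 7.36 and 13.3.

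Pltp encodes phospholipid transfer protein, which moves phospholipids between lipoproteins and is a target of the sterol receptor LXR. It had 0.394, 0.609 and 0.393 RPKM in PBS, 0.928, 1.11 and 1.01 in Dox, 2.51, 1.93 and 1.64 in CpG1668, and 5.18, 4.20 and 3.996 in CpG1668+Dox. The groups did not overlap, and the ratios to PBS were 2.19, 4.35 and 9.58. Its 3′ end shares 1515 bases with Ctsa, a lysosomal protease gene on the other strand, and the sources used here do not say whether counting used strand. Ctsa was at 13.8 ± 0.436 RPKM (SD, n = 3) in PBS and 17.4 ± 1.19 in CpG1668+Dox, a ratio of 1.26.

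Fn1 encodes fibronectin, a matrix glycoprotein that integrins bind. It had 5.34, 4.71 and 5.21 RPKM in PBS, 7.87, 7.32 and 6.55 in Dox, 6.85, 6.71 and 6.67 in CpG1668, and 8.56, 8.57 and 8.01 in CpG1668+Dox. It was the flattest of the 9, with ratios to PBS of 1.43, 1.33 and 1.65. Dox and CpG1668 libraries overlapped, and so Fn1 had a low PBS group, a high CpG1668+Dox group and a middle that the single treatments shared.

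Lyz2 was the most abundant of the 9. It had 15.5, 30.4 and 20.2 RPKM in PBS, 78.1, 143 and 142 in Dox, 93.2, 96.0 and 114 in CpG1668, and 288, 227 and 348 in CpG1668+Dox. The Dox libraries lay on both sides of the CpG1668 libraries, while PBS lay below and CpG1668+Dox above all others. Its ratios to PBS were 5.49, 4.59 and 13.1. The near copy Lyz1, whose transcript is 95.8% identical over 1264 aligned bases, was at or below 0.352 RPKM in every library, so how reads were split between the copies is uncertain but little was assigned to Lyz1.

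**Figure D1:**
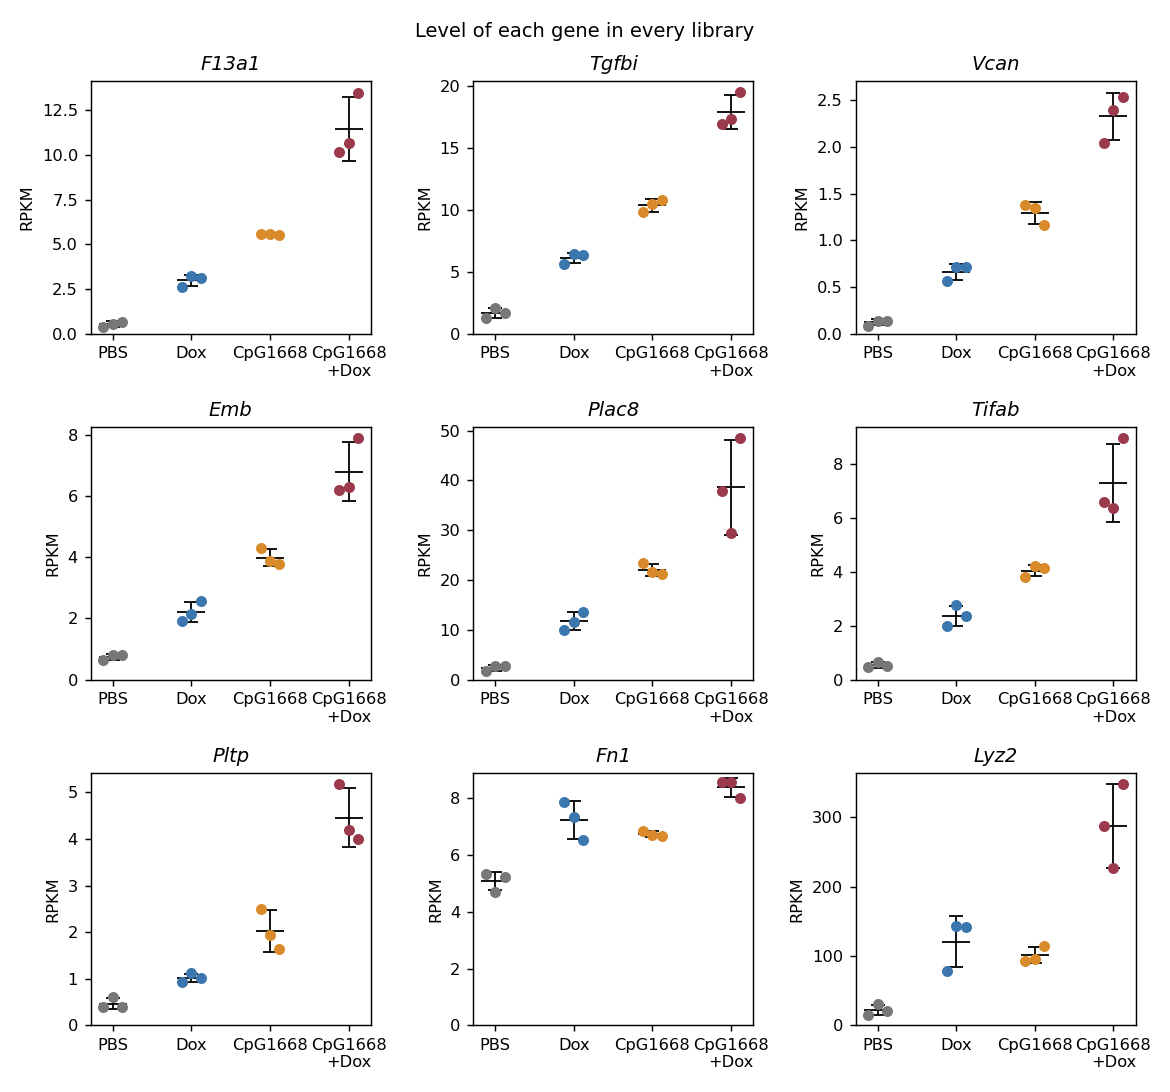
RPKM of each of the 9 genes (vertical axes, from 0) in the 4 groups (horizontal axes); points are the 3 libraries of a group, the horizontal mark is their mean and the bars are ± 1 SD. In 7 panels the groups climb without overlap from PBS to Dox, CpG1668 and CpG1668+Dox; in Fn1 and Lyz2 the Dox and CpG1668 libraries overlap.

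Over the 12 libraries, 7 of the 9 genes had every library of each group above every library of the group before it, a pattern that 0.805% of the tested genes showed. The means alone followed the order in the same 7 and in 7.68% of all genes. Because the order chose the genes, nothing is read from that count. Step by step, every Dox library lay above every PBS library in 9 of 9 genes (15.2% of all tested genes) and every CpG1668 library lay above every Dox library in 7 (5.15%). Every CpG1668+Dox library lay above every CpG1668 library in 9 (15.2%), and above every Dox library in 9 (8.84%). In limma on log2(RPKM + 1) with p-values adjusted over all genes, 9 members were called higher in Dox than PBS (3.95% of all genes), 9 in CpG1668 than PBS (3.06%) and 9 in CpG1668+Dox than PBS (9.13%). Between treatments, 7 were called higher in CpG1668 than Dox (0.353%), 9 in CpG1668+Dox than CpG1668 (3.07%) and 8, all but Fn1, in CpG1668+Dox than Dox (2.81%). The median log2 difference of the 9 was 1.12 for Dox against PBS, 1.71 for CpG1668 against PBS and 2.41 for CpG1668+Dox against PBS, where the medians of all genes were 0.01, -0.01 and 0.00. With single libraries left out, the step from Dox to CpG1668 lost the most calls. Without CpG1668 library 1 only 2 of the 9 were called there, without CpG1668 library 2 only 3, and without Dox library 1 or Dox library 3 only 4.

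The gains over PBS had nearly fixed proportions in 6 of the genes. The gain after Dox was 48.7% of the gain after CpG1668 for F13a1, 51.2% for Tgfbi, 46% for Vcan, 45.3% for Emb, 47.5% for Plac8 and 52% for Tifab. With each of the 12 libraries left out in turn, these 6 shares ran from 40% (Emb without Dox library 3) to 57.2% (Tifab without Dox library 1). Both gains are measured from the same PBS libraries. Pltp had a lower share of 35.5% (31.5% to 41.9% with a library left out). Fn1 and Lyz2 had shares of 130% (111% to 151%) and 125% (111% to 152%), so that their mean gain was larger after Dox than after CpG1668. Their Dox and CpG1668 libraries overlapped, and limma called neither gene between these groups (adjusted p 0.53 and 0.78). The direct ratio of CpG1668 to Dox means, which uses no PBS library, was 1.86 for F13a1, 1.69 for Tgfbi, 1.96 for Vcan, 1.80 for Emb, 1.88 for Plac8, 1.71 for Tifab and 1.99 for Pltp. It was 0.931 for Fn1 and 0.837 for Lyz2.

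**Figure D2:**
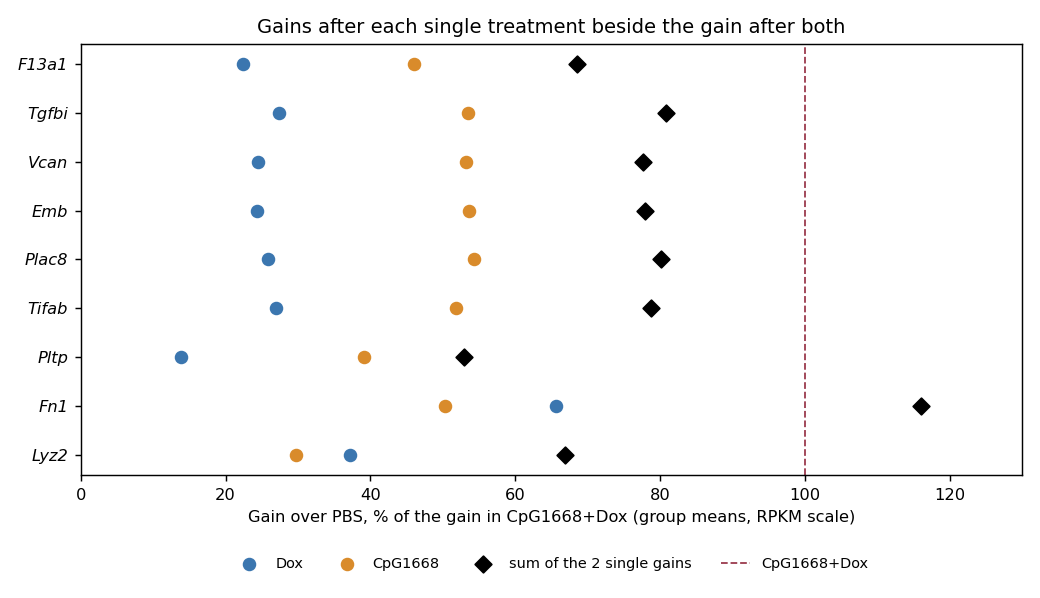
Gain over PBS after Dox (blue), after CpG1668 (orange) and the sum of the 2 (black diamonds), as a percentage of the gain after CpG1668+Dox (dashed line at 100), from group means on the RPKM scale, 1 row a gene. From F13a1 to Tifab, Dox stands at 22.4% to 27.4% and CpG1668 at 46.1% to 54.3%; the sum stays left of the dashed line for every gene but Fn1, where it reaches 116%.

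Whether the treatments added up was tested on the RPKM scale, as the level in CpG1668+Dox against CpG1668 plus Dox minus PBS. In 8 of the 9 genes the level after both treatments was above that sum, and in Fn1 it was below. The choice of genes for a high level after both treatments used the same libraries, so these p-values support nothing about the list. Beside this, 55.4% of all tested genes lay above their sum. Genes called higher after each single treatment made up 1.93% of all genes, and of the 226 that are not among the 9, 190 (84.1%) did. The ratio of observed level to sum had a median of 1.25 in the 9 genes, 1.2 in those 226 genes and 1.01 in all genes. By that ratio the 9 genes stood close to the 226. At an unadjusted p under 0.05, 6 of the 9 (66.7%) lay above the sum, and 51 of the 226 (22.6%) lay above and 21 below. The median log2 interaction was -0.41 in the 9 and -0.12 in the 226.

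F13a1 had an expected sum of 8.01 RPKM and an observed mean of 11.4 ± 1.78 (SD, n = 3), an excess of 3.43 (95% interval 1.45 to 5.42). Tgfbi had an expected 14.8 and an observed 17.9 ± 1.36, an excess of 3.11 (1.33 to 4.90). For Vcan the excess was 0.492 RPKM (0.107 to 0.878) over an expected 1.83, and for Emb it was 1.34 (0.168 to 2.51) over 5.46. In these 4 genes each of the 3 CpG1668+Dox libraries lay above the sum.

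Pltp stood furthest above its sum. It had an expected 2.58 RPKM and an observed 4.46 ± 0.633, an excess of 1.88 (0.995 to 2.77), and a ratio of 1.73. Lyz2 had an excess of 87.9 RPKM (10 to 166) over an expected 200, with a ratio of 1.44, like the 1.43 of F13a1. Tifab had an excess of 1.44 RPKM (-0.211 to 3.09) over 5.87, with all 3 libraries above the sum. Plac8 had an excess of 7.22 RPKM (-3.32 to 17.8) over 31.4, with 2 of 3 libraries above. Fn1 had a difference of -0.525 RPKM (-1.52 to 0.466) from an expected 8.90, with 0 of 3 libraries above. For these last 3 genes the interval spans 0, so a difference from additivity was not detectable in either direction.

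In limma with adjustment over the 12167 genes, 0 of the 9 and 0 of all genes were called for a departure from additivity (0% in each direction). The adjusted p was 0.385 for Pltp, 0.445 for F13a1 and Tgfbi, and higher for the others. At an unadjusted p under 0.05, 6 of the 9 lay above the sum, where 4.5% of all genes and 22.6% of the 226 genes did, and 2.57% of all genes lay below. The unadjusted p was 0.00067 for Pltp, 0.0027 for Tgfbi, 0.0029 for F13a1, 0.017 for Vcan, 0.029 for Emb and 0.03 for Lyz2. It was 0.081 for Tifab, 0.16 for Plac8 and 0.27 for Fn1. With a library left out the count ran from 4 to 8. CpG1668+Dox library 3, the highest of its group in 7 of the 9 genes, set much of the size. Without it the excess was 0.788 RPKM for Emb, 0.613 for Tifab, 2.30 for Plac8 and 57.9 for Lyz2. Without CpG1668+Dox library 2 the excess of Plac8 was 11.8. The difference of Fn1 was -0.214 without Dox library 1, -0.337 without PBS library 2, -0.340 without CpG1668+Dox library 3 and -0.875 without Dox library 3.

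The same contrast on the log2(RPKM + 1) scale asks whether fold changes multiply, and it pointed the other way. The product of the single fold changes was 56.9 for F13a1 against an observed 21.2, 22.4 against 10.6 for Tgfbi, 56.7 against 18.9 for Vcan and 45.7 against 16.2 for Plac8. It was 31.6 against 13.3 for Tifab, 25.2 against 13.1 for Lyz2, 16 against 9.14 for Emb and 1.89 against 1.65 for Fn1. For Pltp the product of 9.53 was close to the observed 9.58. So 8 of the 9 genes had a negative interaction and 1 a positive one. By limma 0 of the 9 and 0 of all genes were called after adjustment (0% in each direction, smallest adjusted p of the 9 genes 0.419). At an unadjusted p under 0.05, 5 of the 9 lay below 0 (2.94% of all genes) and 1 above (3.73%).

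The 5 were Plac8 with an interaction of -1.16 (95% interval -1.69 to -0.64, unadjusted p 0.00049), Lyz2 with -0.92 (p 0.031), Tgfbi with -0.68 (p 0.00036), F13a1 with -0.46 (p 0.0066) and Tifab with -0.41 (p 0.025). The gene above was Pltp with 0.39 (p 0.03). These values depend on the pseudocount in low genes. With a pseudocount of 0.1 the interaction was -0.98 for Vcan (-0.03 with 1) and -0.70 for Emb (-0.24 with 1). It was -1.28 for F13a1, -1.10 for Tifab and -1.04 for Tgfbi. For Pltp it fell from 0.39 with 1 to 0.11, so all of these genes were lower with 0.1. At an unadjusted p under 0.05, 7 of the 9 then lay below 0 and none above. The 5 became 3 without PBS library 1, without CpG1668+Dox library 2 or without Dox library 2. Vcan changed sign to 0.03 without CpG1668+Dox library 1. By group means, 7 of the 9 genes ended between a sum of gains and a product of folds, Pltp ended at the product and Fn1 under the sum.

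**Figure D3:**
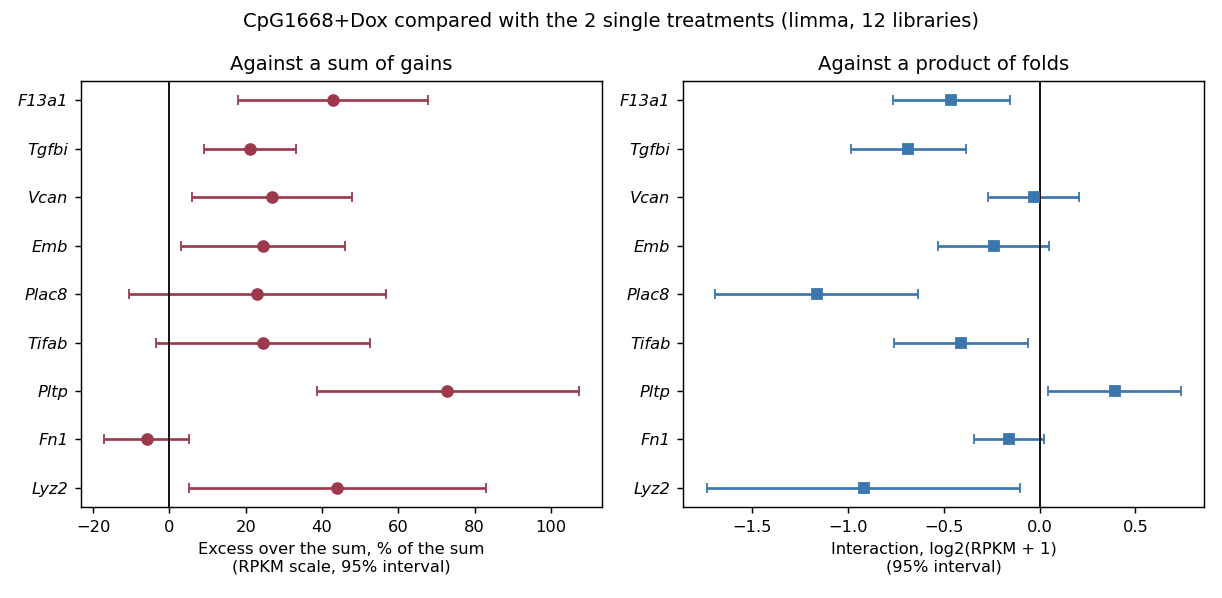
Left, the level in CpG1668+Dox minus the sum expected from the single treatments, as a percentage of that sum; right, the interaction on log2(RPKM + 1); points are limma estimates from 12 libraries and bars are 95% intervals. On the left 8 genes lie above 0 and Fn1 below; on the right 8 lie below 0 and Pltp above.

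Within a group, 7 of the genes moved together from library to library. After the group means were taken off, the 21 pairs among F13a1, Tgfbi, Vcan, Emb, Plac8, Tifab and Lyz2 had correlations of log2(RPKM + 1) from 0.401 to 0.868 (median 0.695) over the 12 libraries. Pairs with Pltp had a median of 0.0396, and all 8 pairs with Fn1 were below 0 (median -0.632). PBS library 1 was the lowest of its group in 7 of the 9 genes, Dox library 1 in 8, and CpG1668+Dox library 3 was the highest in 7. Fn1 was the reverse in each case: highest in PBS library 1 and Dox library 1, lowest in CpG1668+Dox library 3. These correlations are a description, since the genes share libraries and depth.

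Late neutrophil genes, among them S100a8, the collagenase gene Mmp8 and the chemokine receptor gene Cxcr2, moved with the same libraries only in part. The summed RPKM of 16 such genes was 110, 223 and 155 in PBS, 592, 1320 and 2328 in Dox, 657, 662 and 856 in CpG1668, and 3079, 1751 and 4581 in CpG1668+Dox. All 16 were called higher in CpG1668+Dox than PBS and none of the 16 was at 0 in every library. The sum was the lowest of its group in PBS library 1 and Dox library 1 and the highest in CpG1668+Dox library 3. CpG1668 library 3 had the highest sum of its group, but F13a1, Vcan, Emb, Plac8, Pltp and Fn1 were lowest there. Tgfbi and Lyz2 were highest there. Dox library 3 also had the highest sum of its group, and Emb and Plac8 were highest there. F13a1, Tgfbi, Vcan, Tifab, Pltp and Lyz2 were highest in Dox library 2 instead. Within groups, the correlation with the mean of the late neutrophil genes was 0.866 for Lyz2, 0.805 for Plac8 and 0.738 for Emb. It was 0.648 for Tifab, 0.628 for Tgfbi and 0.612 for F13a1. It was 0.322 for Vcan, 0.036 for Pltp and -0.886 for Fn1. The group means of Lyz2 had the same order as those of the neutrophil sum, with Dox above CpG1668. Single libraries did not all follow it: Dox libraries 2 and 3 had nearly equal Lyz2 (143 and 142 RPKM) at sums of 1320 and 2328, and CpG1668+Dox library 2 had 227 at a sum of 1751. Those of F13a1 did not: Dox libraries 2 and 3 had a higher neutrophil sum than any CpG1668 library and less F13a1.

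When limma also held the mean of the late neutrophil genes as a term, 0 of the 9 were called higher in Dox against PBS and 0 in CpG1668+Dox against CpG1668, as were 0% of all genes in both. In CpG1668+Dox against PBS 3 were called higher, F13a1, Tgfbi and Fn1 (0.0411% of all genes), and in CpG1668 against PBS 7 (0.296%). In CpG1668 against Dox 6 were called (0.436%), and in CpG1668+Dox against Dox 8 (0.978%). At an unadjusted p under 0.05, 8 of the 9 were higher in Dox against PBS (5.75% of all genes), 6 in CpG1668+Dox against CpG1668 (5.61%) and 9 in CpG1668+Dox against PBS (6.71%). By the same measure 9 were higher in CpG1668 against PBS (6.72%), 7 in CpG1668 against Dox (3.9%) and 9 in CpG1668+Dox against Dox (6.17%).

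The covariate moved the log2 differences unequally. For Dox against PBS, that of Lyz2 went from 2.40 to 0.84, of Plac8 from 1.92 to 0.99, of Emb from 0.88 to 0.44 and of Tifab from 1.12 to 0.64. Smaller falls were seen for F13a1 (1.37 to 0.98), Tgfbi (1.42 to 1.02) and Vcan (0.56 to 0.44), Pltp stayed near its value (0.46 to 0.44), and Fn1 grew from 0.44 to 0.76. For CpG1668+Dox against CpG1668, Plac8 went from 0.76 to 0.03 and Lyz2 from 1.49 to 0.27, while Pltp went from 0.86 to 0.84 and Fn1 from 0.28 to 0.52. The covariate differs between groups as the treatments do. Its part and that of treatment cannot be told apart in the contrasts with PBS or in CpG1668+Dox against CpG1668. In each of these the neutrophil sums of the groups compared did not overlap. The departure from additivity kept its sign in all 9 genes with the covariate. Erythroid genes moved the opposite way: the summed RPKM of 16 such genes, globins included, was 15440 to 20370 in PBS, 4061 to 8342 in Dox, 6896 to 11220 in CpG1668 and 4030 to 6676 in CpG1668+Dox. Of these, 14 were called in CpG1668+Dox against PBS, all lower, and their part in the levels of the 9 genes was not tested.

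Genes of B cells, T cells and endothelium were mostly low, with exceptions. Of 10 B cell genes 6 were below 0.1 RPKM in every library, Ms4a1 among them, but Ighm, the heavy chain gene of IgM, had means of 0.461 RPKM in PBS, 1.99 in Dox, 3.22 in CpG1668 and 6.64 in CpG1668+Dox. Its groups climbed without overlap, as in 7 of the 9 genes. The summed RPKM of the B cell list was 0.833 to 1.05 in PBS, 2.39 to 2.73 in Dox, 3.75 to 4.41 in CpG1668 and 6.75 to 10.2 in CpG1668+Dox. Of 10 T and NK cell genes 7 were below 0.1 RPKM in every library, Cd3e among them, while the granule gene Nkg7 was at 14.1 RPKM in PBS and 16.6 in CpG1668+Dox (adjusted p 0.5). Of 10 endothelial and stromal genes 6 were below 0.1 RPKM, Cdh5 among them, and Kdr was at 1.34 to 1.59 RPKM in PBS and 1.30 to 1.34 in CpG1668+Dox (adjusted p 0.35). Kdr was the only 1 of the list that passed the filter. The summed RPKM of the list was 1.92 to 2.19 in PBS and 1.96 to 2.40 in Dox. It was 2.58 to 2.80 in CpG1668 and 3.33 to 3.64 in CpG1668+Dox. The 4 tested dendritic genes, Cd74 and the class II genes H2-Aa, H2-Ab1 and H2-Eb1, were all called higher in Dox than PBS and none in CpG1668+Dox than PBS. Of 7 tested mast cell and basophil genes 3, Cpa3, Mcpt8 and Prss34, were called higher in CpG1668+Dox than PBS, and Cpa3 was already at 402 RPKM in PBS. The part of these cells in the levels of the 9 genes was not tested.

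**Figure D4:**
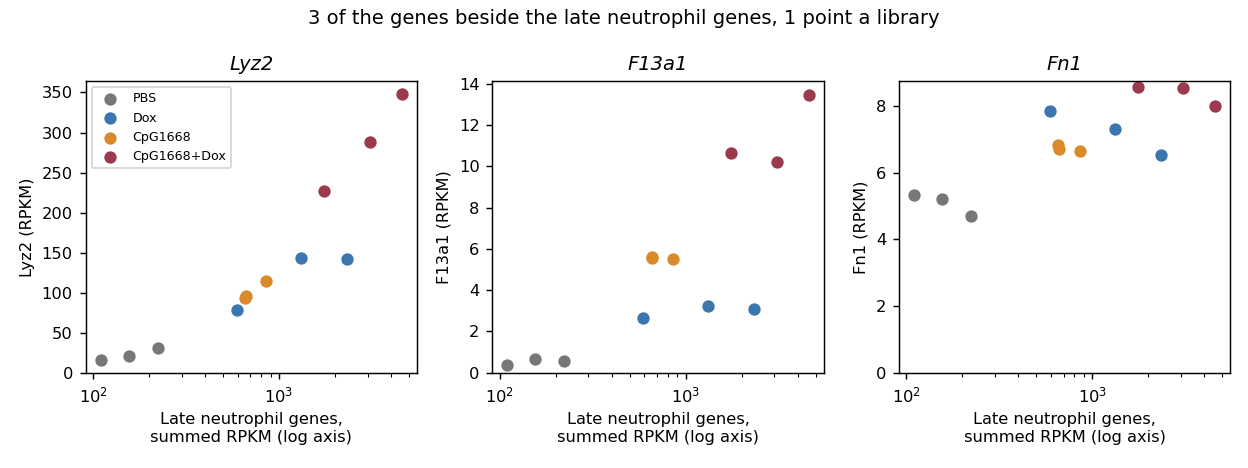
RPKM of Lyz2, F13a1 and Fn1 (vertical axes, from 0) against the summed RPKM of 16 late neutrophil genes (horizontal log axes), 1 point a library, coloured by group. Lyz2 is highest in the CpG1668+Dox libraries, and Dox library 3 lies below CpG1668+Dox library 2 (142 against 227 RPKM) although its neutrophil sum is higher; F13a1 is lower in all 3 Dox libraries than in the CpG1668 libraries, although 2 of the 3 have a higher neutrophil sum; Fn1 falls with the sum within each group.

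The 9 genes were set beside other monocyte genes, in lists chosen with earlier results of these data known. The filter used the mean over all 12 libraries, so a gene near 0 in PBS was tested only if it was higher elsewhere. This can raise the share called higher in lists of low genes. Below the filter were 6 of 30 monocyte genes and 2 of 12 granulocyte progenitor genes. Of 24 tested genes of a monocyte list that holds none of the 9, 22 were called in CpG1668+Dox against PBS. All 22 were higher, where 9.13% of all genes were, and the list had a median log2 difference of 1.57. The list rose over PBS after Dox (21 of 24 higher, 3.95% of all genes) and after CpG1668 (21 of 24, 3.06%). In CpG1668 against Dox 5 of 24 were higher (0.353%). Csf1r, the receptor of the main monocyte growth factor, differed by 1.97 ± 0.154 (SE, adjusted p 5.9e-06) between CpG1668+Dox and PBS, and Ccr2, the chemokine receptor of classical monocytes, by 1.63 ± 0.11 (adjusted p 2.3e-06). Groups that climbed without overlap in the order of the 9 were seen in 12 of the 24. Granulocyte genes rose too. Of granulocyte progenitor genes 10 of 10 tested, Mpo and Elane among them, were called higher in CpG1668+Dox than PBS (9.13% of all genes), with a median of 4.12. Camp, Ltf and Ngp of these 10 are also among the 16 late neutrophil genes. In 6 of the 10 (Mpo, Elane, Prtn3, Ctsg, Ms4a3 and Gstm1) the groups climbed without overlap in the order of the 9. Mpo, myeloperoxidase, had means of 2.26 RPKM in PBS, 17.4 in Dox, 47.8 in CpG1668 and 86.9 in CpG1668+Dox. None of the 16 late neutrophil genes showed that order, which 0.805% of all genes did. The 9 genes therefore rose beside both monocyte and granulocyte genes. Of 9 tested macrophage genes 1 was called by limma in CpG1668+Dox against PBS, a share near the 9.13% of all genes. It was Adgre1, which encodes F4/80 (1.82 ± 0.14, adjusted p 5.1e-06). The macrophage list still had a median log2 difference of 0.745. The summed RPKM of its 16 measured genes was 19.1 to 33.4 in PBS and 33.7 to 53.8 in CpG1668+Dox.

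Most tested transcription factors of a myeloid fate list were higher after both treatments. Of 13 tested, 10 were called in CpG1668+Dox against PBS, all higher (median 0.72), where 9.13% of all genes were called higher. A further 7 of the 20 genes on the list were below the filter, which favours low genes that rose. After Dox alone 6 of 13 were called higher than PBS (3.95% of all genes). Cebpe, called in both contrasts, is also on the list of granulocyte progenitor genes. In CpG1668 against Dox only Klf4 was called higher and Gata2 lower (median 0.00), and 4 of the 13 (Irf8, Klf4, Cebpa and Nfil3) had groups that climbed without overlap in the order of the 9. Irf8 had means of 0.376 RPKM in PBS, 1.17 in Dox, 1.61 in CpG1668 and 2.89 in CpG1668+Dox, and its log2 difference between CpG1668+Dox and PBS was 1.49 ± 0.0953 (SE, adjusted p 1.5e-06), while its difference of 0.27 between CpG1668 and Dox was not called (adjusted p 0.19). Klf4 had 0.393, 1.48, 2.17 and 4.64 RPKM in that order and differed by 2.02 ± 0.0684 (adjusted p 1.6e-08). Both were among the 10 genes most like the 9. Likeness was measured as Pearson's r over the 12 libraries between log2(RPKM + 1) and the mean z-score of the 9, among 9642 genes that are no members. The 10 were Ccl9 (0.997), Ms4a6c (0.994), Cebpa (0.992), Klf4, Ms4a4c, Cxcr4 and F10 (0.991 each), and Pld4, Rassf4 and Irf8 (0.990 each). By Spearman's rho 3 of the 10 stayed among the leading 10. Of the 9 themselves, measured against the other 8, F13a1 was the most alike (0.997), and Pltp (0.940), Lyz2 (0.943) and Fn1 (0.872) the least.

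Of 12 tested receptors of matrix proteins, 2 (16.7%) were called higher in CpG1668+Dox than PBS, where 9.13% of all genes were. These were Itgam and Itgb2, the chains of the integrin Mac-1. By limma they differed by 2.80 ± 0.195 (adjusted p 2.7e-06) and 1.69 ± 0.135 (adjusted p 6.6e-06). Itgam is also among the 16 late neutrophil genes. The fibronectin receptor chains Itga5 and Itgb1 had log2 differences of -0.01 and -0.06, Itga4 had -0.10, and the versican and hyaluronan receptor Cd44 had 0.18 (adjusted p 0.9, 0.3, 0.3 and 0.061). Cd44 was called without CpG1668+Dox library 2 or Dox library 1, and Itga5 changed sign with a library left out. Of 21 genes of the clotting and matrix families of the 9, only 4 were tested and 1 was called: F10, clotting factor X, with a mean of 0.266 RPKM in PBS and 4.06 in CpG1668+Dox (1.995 ± 0.126, adjusted p 1.4e-06). A further 13 of them were below 0.1 RPKM in every library, among them F13b, which encodes the carrier subunit of factor XIII.

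The pathways around Tgfbi, Pltp and Emb had few tested genes, and their counts are read against the 9.13% of all genes called higher and 6.4% called lower in CpG1668+Dox than PBS. Of 8 tested TGF-beta pathway genes 1 was called in CpG1668+Dox against PBS, the ligand gene Tgfb1, which fell from 76.3 to 66.6 RPKM (-0.19 ± 0.0318, adjusted p 0.0017). Tgfbi, named for its induction by that ligand, was higher in the same comparison. RNA of Tgfb1 does not measure active ligand, and a link between the 2 genes was not tested. Of 9 tested LXR and lipid genes 1 rose (Rxra, the partner of LXR, by 0.63, adjusted p 0.00025) and 1 fell (Lpcat3, by 0.16, adjusted p 0.011). Nr1h3, which encodes LXR alpha, was below the filter at means of 0.325 RPKM in PBS, 0.475 in Dox, 0.700 in CpG1668 and 0.866 in CpG1668+Dox. Its groups climbed without overlap in that order, as those of Pltp did. Of 5 tested embigin relatives and lactate transporters 1 was called, and it was lower (Slc16a6, -0.27, adjusted p 0.012; not called without PBS library 2). With 1 or 2 calls a list, these counts say nothing particular of the pathways. Basigin, the closest relative of embigin, had a difference of -0.11 (Bsg, adjusted p 0.24).

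Of 10 tested genes around TIFA and TRAF6, 2 were called higher in CpG1668+Dox than PBS (9.13% of all genes), Myd88 by 0.17 (adjusted p 0.009) and Traf2 by 0.16 (adjusted p 0.015). Traf2 was not called without PBS library 3, CpG1668+Dox library 1 or CpG1668+Dox library 3. Tifa, the relative that gives Tifab its name, had a difference of 0.37 ± 0.121 (adjusted p 0.063; called without PBS library 2). Tifab differed by 2.41 on the same log2 scale. As a ratio of means, Tifa stood at 1.58 and Tifab at 13.3.

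**Figure D5:**
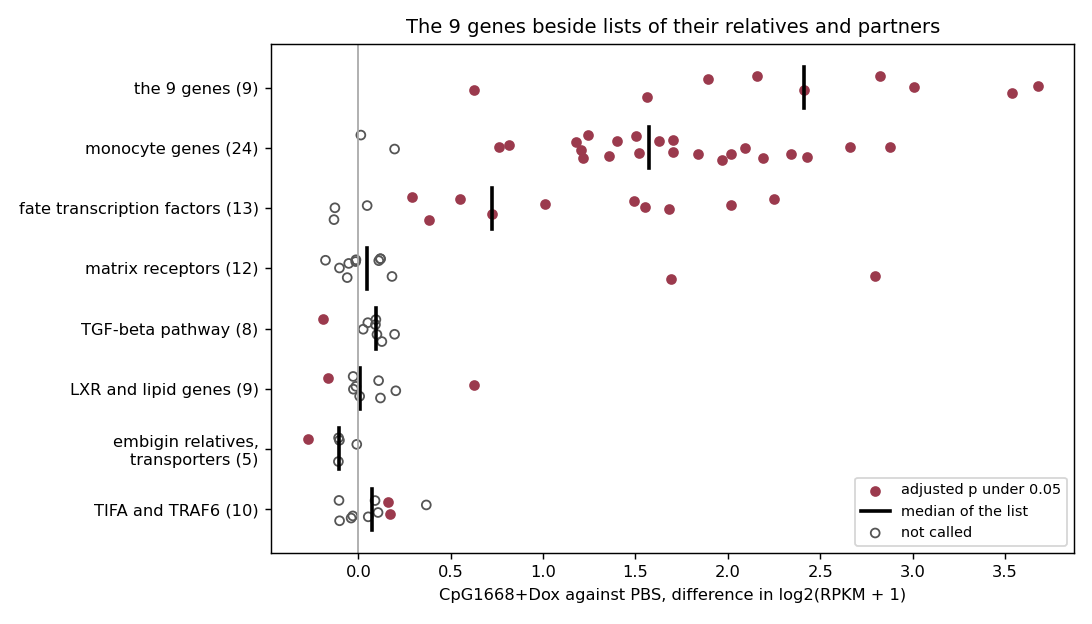
Difference in log2(RPKM + 1) between CpG1668+Dox and PBS for the 9 genes and the tested genes of 7 lists (number in brackets); filled points were called by limma at an adjusted p under 0.05, open points were not, and black bars are medians. The 9 genes, the monocyte genes and the fate transcription factors lie to the right, with medians of 2.41, 1.57 and 0.72; the other 5 lists centre near 0.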

How the data were processed

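RNA was sequenced from 12 libraries, 3 in each of 4 groups taken from the sample titles. The authors deposited RPKM values, 1 file a library. STAR 2.7.9, Partek 7.18.0723 and the build mm10 appear, without roles, in the submitters' processing notes. Annotation, filters and strand of counting were not given in the sources used here. Depth was estimated from the step between low RPKM values of genes with 1 transcript, of which 72.2% to 74% lay within 0.05 of a whole read. Genes averaging 1 RPKM or more over all 12 libraries were kept, which among genes low in PBS favours those that rose in another group. Limma 3.58.1 (R 4.3.3) was run on log2(RPKM + 1) with these settings: 4 group means, 8 residual degrees of freedom, an intensity trend, Benjamini-Hochberg adjustment over 12167 genes, and calls at an adjusted p under 0.05. A log2 difference on this scale understates the change of low genes, so ratios of means are given beside it. Additivity was fitted on RPKM divided by the gene's mean and scaled back. Both fits were tested on simulated data. Symbols matched GENCODE M21 (GRCm38) for 32391 of 33531 (96.6%). Alternatives covered the pseudocount, filter, scaling, quantile normalization, trend, group weights, a replicate block, a late neutrophil covariate, fits of 2 groups and leaving out each library. The 9 genes and the gene lists were chosen with earlier results of these data known. Named genes were the 9, genes fixed by name, up to 4 of each list by smallest p and the 10 most alike; Ctsa, Ly86, Elane, Cxcr2, Ms4a1, Cd3e, Cdh5, Ms4a3 and Gstm1 were chosen after their values were seen. Replicate numbers in the titles gave no sign of pairing the libraries, and whether they do could not be settled.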

Additional observations from a re-analysis of the deposited data

How the results depend on the processing

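Of 185 values of the 9 genes for additivity under the alternatives, all kept their sign and none was called, and 184 of 185 for the log2 interaction did; there Vcan turned to 0.032 without CpG1668+Dox replicate 1 (-0.077 to 0.032 with a library left out), and the pseudocount of 0.1 moved it to -0.98. The counts of called genes moved more. Without a filter on low genes 434 genes were called in Dox against PBS, 102 in CpG1668 against Dox (4 of the 9) and 658 in CpG1668+Dox against Dox, with 12 for the interaction and 2 for additivity. At a mean RPKM of at least 5, where 5 of the 9 genes remained in the test, the counts were 382 for Dox against PBS, 185 for CpG1668+Dox against CpG1668, 455 for CpG1668 against PBS, 1155 for CpG1668+Dox against PBS and 180 for CpG1668+Dox against Dox. All 5 stayed called in the first 4 of these; 4 did in the last, 3 in CpG1668 against Dox, and 3 lay above additivity at an unadjusted p under 0.05. With only the 2 groups compared, 355 genes were called in Dox against PBS, 72 in CpG1668 against Dox, 257 in CpG1668+Dox against CpG1668 and 216 in CpG1668+Dox against Dox.

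With the late neutrophil covariate, 0 genes were called in Dox against PBS and in CpG1668+Dox against CpG1668 (0 of the 9 in each), 93 in CpG1668 against Dox, 43 in CpG1668 against PBS, 5 in CpG1668+Dox against PBS (3 of them among the 9), 136 in CpG1668+Dox against Dox, 2 for the interaction and 1 for additivity. Lyz2 then turned to 0.30 in CpG1668 against Dox, and in CpG1668+Dox against PBS Cd44 turned to -0.22, Itgb1 to 0.12, S100a8 to -0.67 and Tifa to -0.24. Itga5 turned to 0.013, 0.025 and 0.0039 without PBS replicate 1, PBS replicate 2 and CpG1668+Dox replicate 1 (-0.082 to 0.025 with a library left out). By Spearman's rho 3 of the 10 genes most like the 9 were shared. The causes were not tested.

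With 1 library left out, called genes ran from 313 to 774 in Dox against PBS, 33 to 236 in CpG1668 against Dox (2 to 7 of the 9), 133 to 459 in CpG1668+Dox against CpG1668, 367 to 762 in CpG1668 against PBS and 258 to 429 in CpG1668+Dox against Dox. They ran from 0 to 1 for the interaction and 0 to 3 for additivity, and the members below 0 in the interaction at an unadjusted p under 0.05 from 3 to 6. Deviations of libraries with the same replicate number had correlations of -0.21 to 0.27 (18 pairs, 2 over 0.1). That gave no sign of pairing, but it cannot settle whether the numbers pair the libraries. A replicate block gave 78 genes in CpG1668 against Dox, where 190 were called without it, and 6 of the 9 in place of 7. Depth limits Vcan and Pltp most: their PBS values stand for about 34 to 57 and 27 to 43 reads.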

Other observations

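Genes around the 9 were looked at in windows of 500 kb. Of 51 tested neighbours that are not among the 9, 6 (11.8%) were called higher in CpG1668+Dox than PBS by limma and 1 lower, where 9.13% of all genes were called higher. The 6 were Ly86 beside F13a1 (1.36 ± 0.0935 SE, adjusted p 2.6e-06), Hpse, the heparanase gene, beside Plac8 (0.64 ± 0.092, adjusted p 0.00065), and Ctsa, Elmo2, Mmp9 and Slpi beside Pltp; they were chosen after their values were seen. Ctsa overlaps Pltp and differed by 0.31 ± 0.0481 (adjusted p 0.0011). No tested neighbour of Vcan, Emb, Fn1 or Lyz2 was called, and Tgfbi and Tifab had no called neighbour but each other.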
